A study of Mus musculus with 15 samples.

Results

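Segmental bone defect (SBD) surgery in the mouse femur was compared with Sham over both gravity conditions together, with 7 Surgery and 8 Sham arrays, which are all 15 arrays of the series. The mice were male C57BL/6J with a labelled age of 9 weeks, and 1 array was hybridised for each mouse. The study gives this as the approximate age at surgery, and the tissue was taken some weeks later. G-Sham (4 arrays) and FLT-Sham (4 arrays) were unoperated according to the labels and were housed on the ground or in spaceflight. G-Surgery (4 arrays) and FLT-Surgery (3 arrays) had a critical-size defect cut from the femoral shaft before launch, held by a pin and a scaffold. According to the study a collagen sponge soaked in saline was placed around the scaffold, and no bone-forming agent was given. The titles of the Surgery arrays carry SAL, which the labels do not explain. The tissue was the midshaft of the femur, called callus in the labels, and for Sham mice the same stretch of intact bone. Surgery arrays therefore hold a defect site and Sham arrays a closed shaft with its marrow, so injury, hardware and the tissue missing from the defect cannot be told apart. Each sample was labelled with Cy5 and set against a commercial reference RNA, pooled from mouse cell lines, in Cy3. Every value below is a log2 ratio of sample to reference on one array, or a difference of such ratios, Surgery minus Sham, from a fit with gravity as an additive factor.

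After a fracture, blood clot and debris are cleared by neutrophils and then by macrophages, which also signal to stromal cells. Cartilage and woven bone follow, and osteoclasts, giant cells of the macrophage lineage, remodel what has been laid down. The intact shaft encloses marrow, with developing neutrophils, red cells, platelet-forming megakaryocytes and fat cells, and it is surrounded by muscle, whose RNA enters a bulk sample wherever fibres remain attached. In a bulk sample, fewer cells of a type and less RNA per cell cannot be told apart.

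Between 12525 and 20760 probes (median 14346) exceeded background in Cy5 on a Surgery array, and between 12998 and 21493 (median 17887.5) on a Sham array. With gravity as a factor the difference of the means was -1805 probes (exact permutation test within gravity over 2450 assignments, two-sided, p = 0.282). Defining markers of bone were present, since Col1a1, Col1a2, Sparc, Spp1 and Ibsp were all measured, while Sp7, Dlx5, Sost and Dmp1 did not reach the filter of 3 arrays above background. The arrays lay on 3 slides, and slide 1 held 5 Surgery and 2 Sham arrays while slide 2 held 2 Surgery and 5 Sham arrays, so surgery and slide were partly confounded. FLT-Sham replicates 4 and 6 stood apart, with a median correlation to the other arrays of 0.73 and 0.72, against 0.81 or more for the others.

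Genes called higher after surgery included some of macrophages and inflammation, and those called lower included some of fat cells, red cells, neutrophil precursors, platelets and muscle. A probe is called below when it changed 2-fold or more with a moderated p from limma no higher than 0.01 before adjustment, the cut-off of the study's methods. By this rule 987 of 21869 probes were called (4.51%), of which 367 rose and 620 fell after surgery. Taking each of the 11178 genes with a symbol at its brightest probe, 541 were called (4.84%), with 155 higher (1.39%) and 386 lower (3.45%). Only 2 probes passed a Benjamini-Hochberg adjusted p of 0.05 in limma (0.00915%), those of Trem2 and Fkbp7, and 4046 had an unadjusted p of at most 0.05. Surgery took up 17.0% of the sum of squares left after the gravity means (exact permutation test within gravity over 2450 assignments, p = 0.0510). With slide as a block 392 probes were called and the share was 14.4% (exact permutation test within slides and gravity, p = 0.174). Of the called probes, 259 were above background on no Surgery array, all of them lower, and 28 on no Sham array, all of them higher. A filter on probes above background on every array removes both kinds. It left 8349 probes, of which 268 were called, with 60.4% higher after surgery against 37.2% among all called probes.

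A gene was taken to move the same way in both conditions when it was called and its ground difference and its flight difference had one sign and were both at least 1.5-fold. This held for 502 genes (4.49% of those tested), 144 higher and 358 lower after surgery. Of the 358 lower genes, 159 were above background on no Surgery array, and of the 144 higher genes 17 were above it on no Sham array. Among the 233 genes above background in each of the 4 groups, 105 were higher and 128 lower. All 987 called probes had one sign in both conditions, a property that the additive call itself largely fixes, so nothing is read from it. Without FLT-Sham replicates 4 and 6, 468 probes were called and 228 genes moved the same way, of which 184 were among the 502. The 144 higher genes had a median difference of 1.29 on the ground and 1.32 in flight, and 74 of them (51.4%) were larger in flight. The 358 lower genes had a median of -1.31 on the ground and -3.00 in flight, and 325 (90.8%) were larger in flight. Over all genes tested the medians were 0.15 on the ground and -0.53 in flight. The interaction of surgery and gravity passed an adjusted p of 0.05 in limma for 0 probes, with 4257 at an unadjusted p of 0.05 and a smallest adjusted p of 0.0805.

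The ground and the flight arrays share no sample, so calls made in one condition alone were also looked up in the other. Of the 547 probes called on the ground arrays alone (2.50%), 48.3% had the same sign in flight, against 52.6% of all probes tested. The directions differed. Of 122 probes lower on the ground 79.5% were lower in flight, where 56.8% of all probes were, while of 425 probes higher on the ground 39.3% were higher in flight, where 43.2% of all probes were. Starting from the 1337 probes called on the flight arrays alone (6.11%), 64.6% had the same sign on the ground. Of the 104 higher in flight 79.8% were higher on the ground, where 58.2% of all probes were, and of the 1233 lower in flight 63.3% were lower on the ground, where 41.8% of all probes were. Only 27 probes were called in both conditions separately, 19 of them with the same sign. Probes share arrays, so these shares are descriptions and carry no test.

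**Figure D1:**
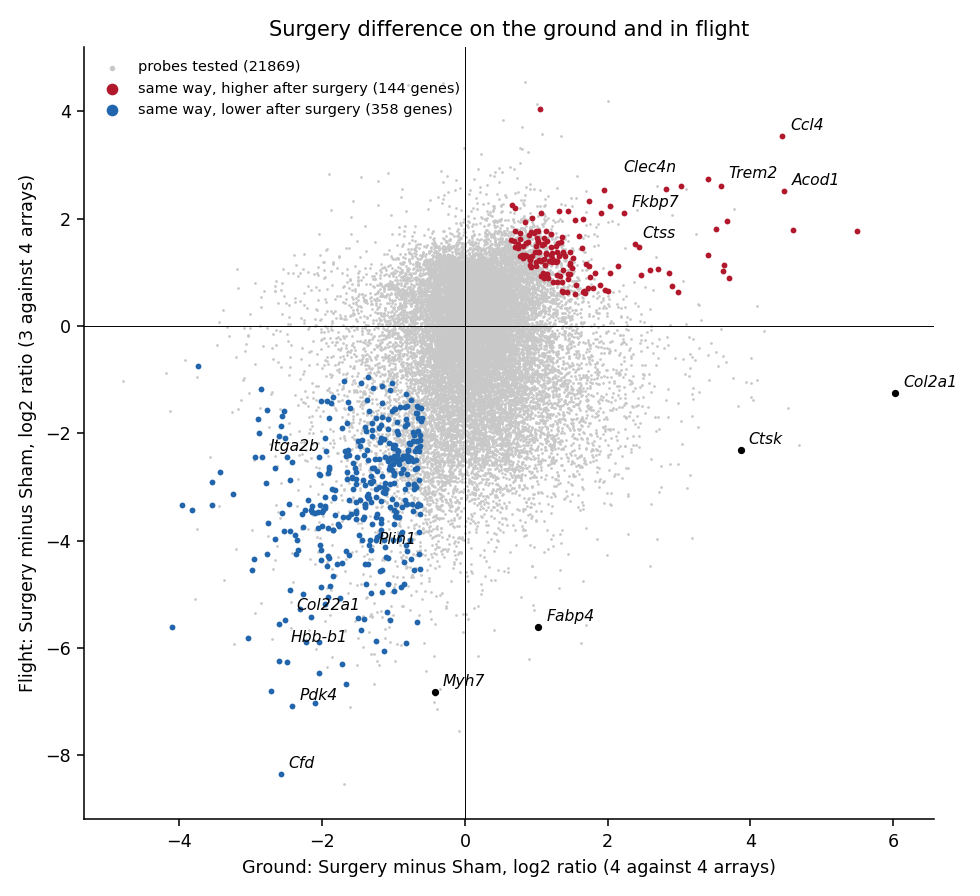
Surgery minus Sham difference of group means on the ground (horizontal axis, log2) against the same difference in flight (vertical axis, log2) for 21869 probes in grey, with the 144 genes that rose and the 358 that fell the same way in colour. The cloud of lower genes reaches further down in flight than to the left on the ground, and Col2a1, Ctsk, Fabp4 and Myh7 (black) lie outside both coloured sets.

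Genes that rose were ranked by the smaller of their ground and flight differences, and among those above background in each group the macrophage receptor genes Clec4n and Trem2 stood first. Trem2 encodes a lipid-sensing receptor of macrophages and osteoclast precursors. Its log2 ratio was -1.75, -1.28, -2.39 and -1.71 on the G-Sham arrays, and 2.35, 2.39, 1.80 and 0.64 on the G-Surgery arrays. In flight it was -2.62, -2.39, -1.08 and -1.86 in FLT-Sham, and 1.65, 0.19 and 0.031 in FLT-Surgery. Every Surgery array lay above every Sham array in both conditions. The difference was 3.13 (standard error 0.38), an 8.77-fold rise, with an adjusted p of 0.0125 from limma, and it was 3.58 on the ground and 2.61 in flight. It was called in each of the 33 alternative settings run, with values from 2.18 to 3.76.

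Clec4n, the gene of the fungal pattern receptor dectin-2 of macrophages and monocytes, ran from 1.69 to 5.51 (median 3.84) on Surgery arrays and from -2.06 to 1.71 (median 1.03) on Sham arrays. The ranges met at a single pair of arrays, and the difference was 2.84 (standard error 0.50, adjusted p = 0.0795 from limma). Acod1, whose enzyme makes the antimicrobial metabolite itaconate in activated macrophages, ran from -3.62 to 2.69 (median 1.02) in Surgery and from -4.86 to -2.23 (median -3.27) in Sham. FLT-Surgery replicate 3 was the one low Surgery array for Acod1, and the difference was 3.57 (standard error 0.80), an 11.9-fold rise. Ctss, the gene of cathepsin S, a lysosomal protease that trims the antigen-presenting machinery, was 3.96-fold higher, at -2.23 to 1.02 (median 0.31) in Surgery and -3.56 to -1.17 (median -2.44) in Sham. Its difference was 2.38 on the ground and 1.53 in flight, and FLT-Surgery replicate 5 lay among the Sham arrays.

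Several genes were not well above background on any Sham array, so only a lower bound of the fold was taken for them, from the Cy5 channel alone against the dimmest signal above background, as the lower of the bounds on 2 scales of Cy5. Ccl4, a chemokine that draws monocytes and lymphocytes, was at least 13.4-fold higher after surgery and was above background on 4 of 7 Surgery arrays. Cxcl5, a neutrophil-attracting chemokine, was at least 7.64-fold higher, with 3 Surgery arrays above background. Itgax, the gene of the integrin CD11c of dendritic cells and macrophages, was at least 6.67-fold higher and measured on 4 Surgery arrays. Cd300ld4, of a family of myeloid immunoglobulin-like receptors, was at least 6.24-fold higher and measured on 6 Surgery arrays. The 3 G-Surgery replicates 1, 3 and 4 and FLT-Surgery replicate 1 held the highest log2 ratios of Ccl4, at 0.80, 0.82, -0.22 and 1.48. The other 3 Surgery arrays were at -3.05, -3.94 and -2.27, and Sham arrays ran from -6.34 to -3.38.

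The wider macrophage list moved less than its leading gene. Of 17 tested members 16 had a difference above 0, against 4823 of 11178 genes, and the median was 0.77 beside -0.11 over all genes. The median was 1.27 on the ground and 0.34 in flight, where 5 members had a difference below 0, and 11 of the 17 had one sign in both conditions. Trem2 and Cd14, the co-receptor for bacterial lipopolysaccharide, were the 2 called. Cd14 ran from -3.95 to -2.26 (median -2.64) in Surgery and from -4.47 to -3.18 (median -3.87) in Sham, with a difference of 1.08 (standard error 0.26). Cd68, the lysosomal glycoprotein used as a general macrophage marker, was not called because its difference was 0.66, below the 2-fold cut-off. Yet its 7 Surgery arrays, at -0.52 to 0.069, all lay above its 8 Sham arrays, at -1.24 to -0.60. Such a separation of the arms was found for 36 of 11178 genes (0.322%). The differences of complement genes C1qa and C1qb were 0.77 and 0.51, and neither was called. Summarised per array, the list's median log2 ratio ran from -0.38 to 1.27 (median 0.36) in Surgery and from -0.99 to -0.073 (median -0.32) in Sham, with FLT-Surgery replicate 3 inside the Sham range.

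**Figure D2:**
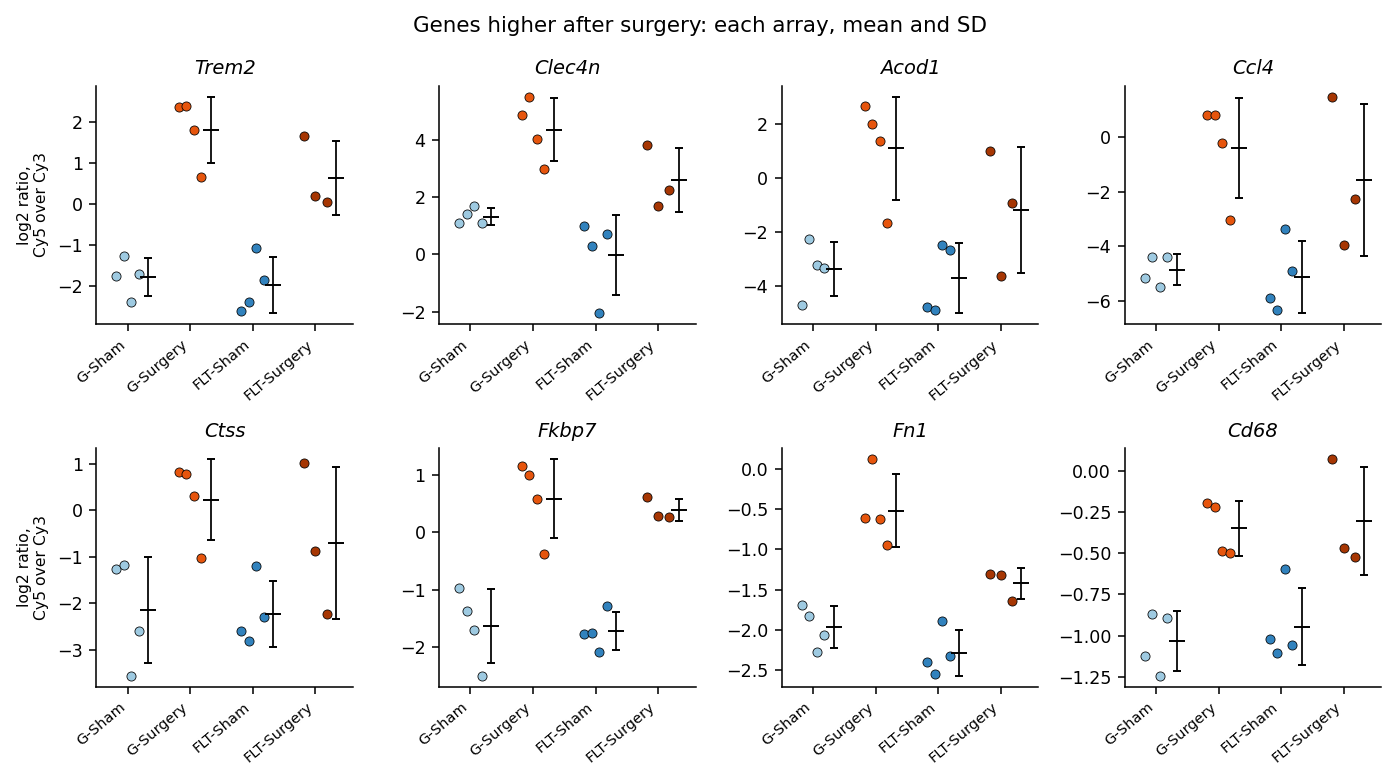
Log2 ratio of Cy5 sample to Cy3 reference for 8 genes higher after surgery, 1 point per array in each of the 4 groups, with the group mean and SD beside the points. Trem2, Fkbp7, Fn1 and Cd68 show no overlap between the 7 Surgery and the 8 Sham arrays, while Acod1, Ccl4 and Ctss spread widely within both Surgery groups.

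Promoters of 2 genes that rose, picked after their values were seen, are shown because macrophage genes commonly carry a purine-rich site bound by PU.1, the transcription factor that sets myeloid identity. The 250 bases before the start of transcription are given 5′ to 3′ on the gene's strand, from RefSeq on GRCm38.p6, with each GAGGAA or its reverse complement TTCCTC in capitals. The Trem2 stretch is chr17:48346151-48346400 on the plus strand and that of Ctss is chr3:95526536-95526785 on the plus strand.
Trem2: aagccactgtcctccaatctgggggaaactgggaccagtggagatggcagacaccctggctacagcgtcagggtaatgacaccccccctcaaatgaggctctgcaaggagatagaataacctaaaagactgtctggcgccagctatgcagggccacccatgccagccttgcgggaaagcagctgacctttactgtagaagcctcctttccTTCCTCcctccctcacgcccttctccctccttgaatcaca
Ctss: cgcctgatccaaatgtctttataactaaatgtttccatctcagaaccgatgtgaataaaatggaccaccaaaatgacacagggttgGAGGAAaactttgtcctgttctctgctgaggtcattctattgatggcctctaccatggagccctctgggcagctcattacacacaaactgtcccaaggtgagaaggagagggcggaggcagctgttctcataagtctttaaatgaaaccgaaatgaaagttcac
The letters were found on either strand in 6252 of 27025 promoters of this length (23.1%). They were in 27 of the 107 promoters found for the 144 higher genes (25.2%) and in 65 of the 286 found for the 358 lower genes (22.7%), so both sets lay close to the share of all promoters. A match of letters is a description and no site.

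A few genes of the matrix and of the bone-resorbing lineage rose, while most members of their lists were not called. Fkbp7, an endoplasmic reticulum prolyl isomerase, was at 1.15, 0.99, 0.59 and -0.38 in G-Surgery and 0.61, 0.29 and 0.26 in FLT-Surgery. Its Sham arrays ran from -2.50 to -0.98 (median -1.73), with no overlap. The difference was 2.17 (standard error 0.28, adjusted p = 0.0164 from limma), with 2.23 on the ground and 2.11 in flight. Fn1, the gene of fibronectin, which forms the provisional matrix of wounds, was 2.26-fold higher with no overlap, at -1.64 to 0.12 (median -0.95) in Surgery and -2.55 to -1.69 (median -2.17) in Sham. It was the only called gene of 20 tested in the fibroblast list, whose median was 0.28 and whose ground and flight medians had opposite signs, 0.97 and -0.67.

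Tnfrsf11a, which encodes RANK, the receptor through which osteoclast precursors receive their differentiation signal, rose by 1.01 (standard error 0.23), with Surgery arrays at 2.94 to 4.21 (median 3.23) and Sham arrays at 1.71 to 3.06 (median 2.50). It was the 1 member called of 9 in the osteoclast list and of 7 in the list of RANK ligand and colony factors. With slide as a block its difference was 0.89, below the 2-fold cut-off, and the call held in 9 of the 15 fits without a single array. The osteoclast median was 0.76 on the ground and -0.72 in flight. Acp5 and Ctsk, the phosphatase and the collagen-degrading cathepsin of mature osteoclasts, were not called. Their differences were 1.87 and 3.87 on the ground and -0.91 and -2.31 in flight. Among 21 matrix proteases and inhibitors tested, 3 were called and all were higher. These were Ctss, Ctsb, a lysosomal protease with a difference of 1.19 (standard error 0.32), and Mmp3, the metalloprotease stromelysin. Mmp3 was at least 4.03-fold higher, was above background on 3 of 7 Surgery arrays and on none of the Sham arrays, and was called in 13 of 31 settings.

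Other list members that rose were fewer. Pdpn, the gene of podoplanin of early osteocytes and stromal cells, rose by 1.12 (standard error 0.27) and was the 1 called of 6 osteocyte genes. Kdr, the gene of the main receptor for vascular endothelial growth factor, rose by 1.17 (standard error 0.32), but its other probe had the opposite sign. Oas1a, an interferon-induced sensor of double-stranded RNA, rose by 1.11 (standard error 0.37). It was the 1 called of 19 interferon-stimulated genes (5.26%), near the 4.84% of all genes, and 15 of the 19 had a difference above 0, against 43.1% of all genes. The call of Oas1a was lost with slide as a block and held in 4 of the 15 fits without a single array. Ywhaz, a 14-3-3 adaptor often used for normalization, rose by 1.36 (standard error 0.29) with no overlap between arms, whereas Gapdh differed by -0.30 (from -0.40 to 0.35 over the settings run) and Actb by 0.35, neither called. Within the 10 highest by rule stood also Dubr, a long noncoding RNA (2.13), Lpxn, an adhesion adaptor related to paxillin and known from osteoclast podosomes (2.22), the nuclear receptor gene Rorb (1.80), the zinc finger gene Zfp790 (1.64) and the transporter gene Slc22a28 (1.77). Of these Zfp790 and Slc22a28 were above background on all 15 arrays, and Dubr was above it on 4 Surgery and 3 Sham arrays. Dubr, Lpxn and Zfp790 were not called with slide as a block.

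Of the 502 genes that moved the same way, 22 had no overlap between the 7 Surgery and the 8 Sham arrays, 13 higher and 9 lower. Over all 11178 genes tested there were 36 (0.322%). The 502 were chosen for a difference between these same arrays, so nothing is read from the larger share among them. The following 3 are named for this property after their values were seen. Ms4a7, a membrane protein gene of macrophages, was higher by 3.78 (standard error 0.74), with 5.49 on the ground and 1.78 in flight. Lrp1, an endocytic receptor gene, was higher by 1.28 (standard error 0.22) and Ptprz1, a receptor phosphatase gene, had a difference of -2.66 (standard error 0.45). All 3 had adjusted p-values above 0.05 in limma, at 0.101, 0.0795 and 0.0795.

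Several fat cell genes fell. Cfd, which encodes adipsin, a serine protease of the complement system secreted by fat cells, was at -0.60, 5.81, 6.06 and 8.75 in G-Sham and 0, 2.81, 3.18 and 3.70 in G-Surgery. In flight it was at 10.7, 9.90, 9.66 and 10.1 in FLT-Sham and 4.01, 1.54 and -0.30 in FLT-Surgery. The flight groups did not overlap, and on the ground G-Sham replicate 1 was as low as the Surgery arrays. The difference was -5.24 (standard error 1.33, adjusted p = 0.133 from limma), made up of -2.58 on the ground and -8.34 in flight. The interaction at Cfd was -5.76 and its adjusted p was 0.212 in limma. Plin1, the gene of the lipid droplet coat protein perilipin, was above background on no Surgery array and at least 4.54-fold lower. Its Surgery arrays ran from -0.34 to 0.58 and its Sham arrays from 0.98 to 5.28, with no overlap. Adipoq, the gene of the fat cell hormone adiponectin, and Cidec, of a lipid droplet fusion protein, were also dim on every Surgery array, at least 4.19-fold and 4.41-fold lower. On 3 of 4 G-Sham arrays the Cidec log ratio was listed at 0, the value that the scanner software gives where neither channel was significant, so its fall rested on flight and on G-Sham replicate 5. Retn, the gene of resistin, fell by 2.79 on the log2 scale (-2.24 on the ground and -3.43 in flight). Of 11 adipocyte genes tested 5 were called, all lower, against 3.45% of all genes. The list's median difference was -2.17, with -0.80 on the ground and -3.57 in flight, and with -3.06 on slide 1 alone and -0.57 on slide 2 alone. Fabp4, the fatty acid carrier of fat cells, was not called and had opposite signs, 1.03 on the ground and -5.60 in flight.

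Some genes of the blood-forming marrow were also called lower. The haemoglobin gene Hba-a1 was at 5.48 to 7.85 (median 6.92) on Sham arrays and 2.15 to 6.36 (median 4.60) on Surgery arrays, a difference of -2.68 (standard error 0.56). Only FLT-Surgery replicate 1 lay within the Sham range. Hbb-b1, the beta chain gene, was above background on no Surgery array and at least 8.93-fold lower. Alas2, the first enzyme of haem synthesis in red cells, and Slc4a1, the anion exchanger of the red cell membrane, fell by 3.39 and 2.46 on the log2 scale, and each was below the cut-off when some single arrays were left out (5 and 7 of the 15 such fits kept the call). Hba-a1, Hbb-b1, Alas2 and Slc4a1 were the 4 called of 10 erythroid genes tested, where 3.45% of all genes were called lower. The list's median difference was -1.90 over all 15 arrays, -2.61 on slide 1 alone and -0.94 on slide 2 alone. The medians of all genes on these slides were -0.46 and 0.082. Over only the members above background in Cy5 on every array the erythroid median was -0.54, and over those above it in both channels 0.27.

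Among neutrophil granule genes 3 of 14 were called, all lower, where 3.45% of all genes were called lower. Cebpe, a transcription factor of late granulocyte development, was at 0.11 to 2.94 (median 1.35) in Surgery and 1.91 to 5.67 (median 4.56) in Sham, a difference of -2.83 (standard error 0.55). Mpo, the gene of myeloperoxidase, made at the promyelocyte stage, fell by 2.80 (-1.08 on the ground and -4.81 in flight), and Ngp, a granule protein gene, fell by 1.70. Of the 14 granule genes 12 had a difference below 0, where 56.9% of all genes did. Before adjustment and with no fold cut-off, 7 of the 14 passed 0.05 in limma. Not all fell by much, since Lcn2 was at -0.17, Prtn3 at -0.15 and Elane at 0.59, none of them called. The neutrophil median was -1.57, with -0.31 on the ground and -2.50 in flight, and with -2.42 on slide 1 alone and -0.73 on slide 2 alone. Over only the members above background in Cy5 on every array it was -0.51, and over those above it in both channels 0.075.

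Platelet-lineage genes with calls were Itga2b and Ppbp, 2 of 9, both lower, where 3.45% of all genes were called lower. Itga2b encodes the platelet fibrinogen receptor's alpha chain, CD41. Its log2 ratio was -1.95, -1.77, -2.05 and -1.66 in G-Surgery and -1.51, -1.42 and -1.21 in FLT-Surgery. G-Sham arrays were at -0.32, 1.62, -0.37 and 3.04 and FLT-Sham arrays at 0.92, 2.18, -0.63 and 1.77, with no overlap. It was above background on no Surgery array and was at least 4.09-fold lower. Ppbp, the precursor of platelet basic protein, was at least 5.04-fold lower, whereas the platelet chemokine Pf4 differed by -0.086. The median of the platelet list was -0.96, with -0.21 on the ground and -2.39 in flight. It turned with the slide, at -1.94 on slide 1 alone and 0.11 on slide 2 alone. Over only the members above background on every array the platelet median was 0.36. The promoters of Itga2b, at chr11:102469884-102470133 on the minus strand, and of Mpo, at chr11:87793534-87793783 on the plus strand, are shown beside those above because the same letters stand in genes of the opposite direction.
Itga2b: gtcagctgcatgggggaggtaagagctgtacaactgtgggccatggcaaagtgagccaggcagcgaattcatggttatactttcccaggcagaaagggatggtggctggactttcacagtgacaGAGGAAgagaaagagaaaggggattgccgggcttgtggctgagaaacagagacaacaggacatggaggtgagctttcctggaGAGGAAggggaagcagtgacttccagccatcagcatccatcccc
Mpo: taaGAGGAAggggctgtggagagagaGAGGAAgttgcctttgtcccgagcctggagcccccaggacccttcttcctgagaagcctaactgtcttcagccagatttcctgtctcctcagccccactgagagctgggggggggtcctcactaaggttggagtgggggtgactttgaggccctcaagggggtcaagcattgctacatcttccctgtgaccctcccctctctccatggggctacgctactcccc
Each of these stretches held 2 matches, and those of Trem2 and Ctss held 1 each.

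Some genes of muscle and of energy metabolism fell as well. Pdk4, the kinase that shuts pyruvate out of the mitochondria, was at 2.38 to 6.81 (median 5.37) in Sham and -3.26 to 3.81 (median 1.71) in Surgery, a difference of -4.58 (standard error 1.02). Col22a1, a collagen gene of the muscle-tendon junction, was at 3.52 to 7.56 (median 6.85) in Sham and -0.59 to 5.16 (median 2.92) in Surgery, a difference of -3.89 (standard error 0.82). Actn3, the alpha-actinin of fast fibres, fell by 3.59 and Srl, the gene of sarcalumenin of the sarcoplasmic reticulum, by 4.32. Perm1, a regulator of muscle mitochondria, Klhl40, a sarcomere-stabilising protein gene, and Fhod3, a formin of the sarcomere, were above background on no Surgery array, at least 10.4-fold, 7.31-fold and 8.03-fold lower.

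Over the 20 fast muscle genes tested, 4 were called, all lower (Acta1, Actn3, Eno3 and Mylpf), and 19 had a difference below 0, with a median of -2.02. Of all genes tested 3.45% were called lower and 56.9% had a difference below 0. With slide as a block only Mylpf of the fast list kept its call. Of the 15 fits without a single array Acta1 kept its call in 6 and Eno3 in 5, while Actn3 and Mylpf kept theirs in all. Acta1, skeletal muscle actin, was at 0.62 to 8.54 (median 7.09) in Sham and 0.041 to 4.42 (median 3.36) in Surgery. Mylpf, the fast regulatory light chain, was at least 4.42-fold lower. Of 13 slow muscle genes 2 were called, Smtnl1 and Casq2, while Myh7 and Myl2, the slow myosin chains, differed by -0.42 and -0.40 on the ground and by -6.82 and -7.14 in flight and were not called. Of the 2 genes called in the slow list 1 moved the same way by the rule above. Neither call of the slow list held with slide as a block, and of the 15 fits without a single array Smtnl1 kept its call in 5 and Casq2 in 4. On slide 1 alone the fast muscle median was -3.39 and on slide 2 alone 0.044, where the medians of all genes were -0.46 and 0.082. Per array the median log2 ratio of the fast list was 4.49 to 9.39 (median 8.80) in Sham and 2.78 to 8.22 (median 7.10) in Surgery. G-Sham replicate 1, at 4.49, and FLT-Sham replicate 8, at 6.60, were the lowest Sham arrays, and FLT-Surgery replicates 3 and 5, at 3.48 and 2.78, were the lowest of all. Leaving out G-Sham replicate 1 raised the called probes to 1980 and the genes moving the same way to 1098, and leaving out FLT-Sham replicate 8 raised them to 1662 and 782. How much attached muscle contributed to these values was not tested.

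The electron transport genes, subunits of the respiratory chain that are abundant in muscle, were mostly lower after surgery. Of 44 tested 42 had a difference below 0, where 56.9% of all genes did. With no fold cut-off, 37 of the 44 passed 0.05 in limma before adjustment. The call was reached by 6, all lower, where 3.45% of all genes were called lower. These were Cox5a, Atp5a1, Ndufa4, Ndufc2, Sdha and Cox7a1. All but Atp5a1, at -0.41 on the ground, moved the same way by the rule above. None of the 6 was called with slide as a block. The median was -1.14, with -0.36 on the ground and -2.06 in flight, and with -1.63 on slide 1 alone and -0.53 on slide 2 alone. Cox7a1, the muscle and heart form of its subunit, had the largest called difference at -2.81 (standard error 0.91) and Atp5a1 the smallest at -1.02 (standard error 0.31). Per array the list's median ran from -1.06 to 1.65 in Sham and -1.70 to 0.094 in Surgery, and the lowest Sham arrays were again G-Sham replicate 1, at -1.06, and FLT-Sham replicate 8, at -0.71.

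**Figure D3:**
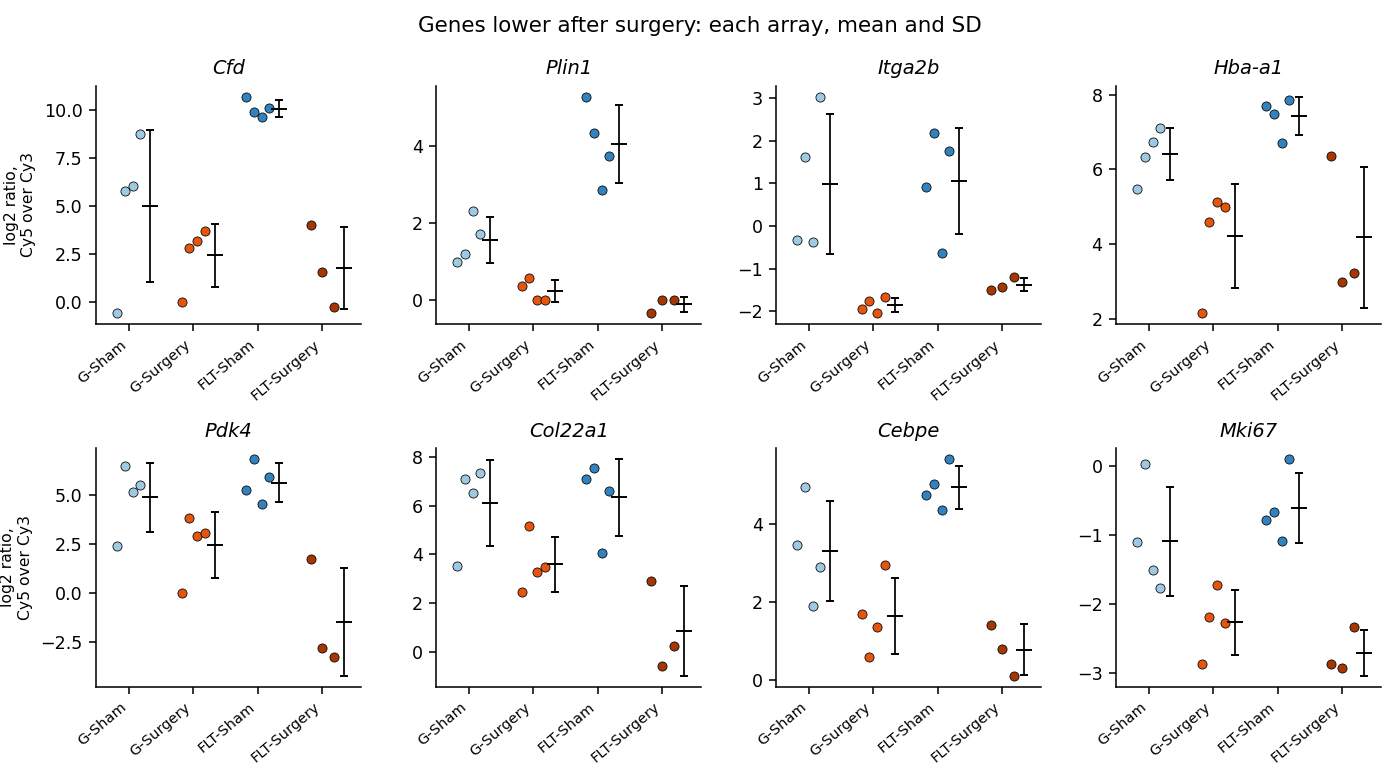
Log2 ratio of Cy5 sample to Cy3 reference for 8 genes lower after surgery, 1 point per array in each of the 4 groups, with the group mean and SD beside the points. Plin1 and Itga2b do not overlap between arms, and for Cfd the 4 FLT-Sham arrays lie near 10 while the G-Sham arrays run from -0.60 to 8.75.

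**Figure D4:**
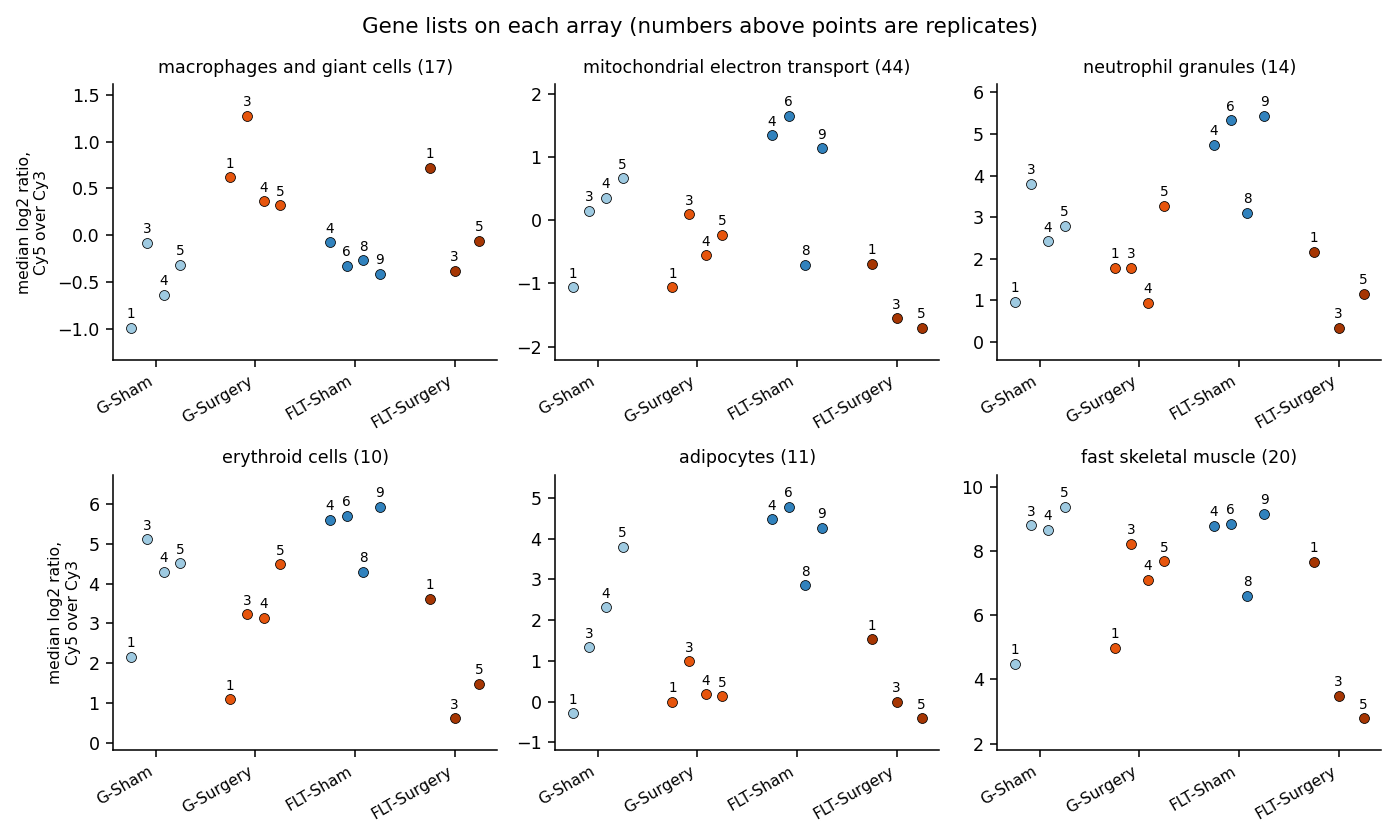
Median log2 ratio over the tested members of 6 gene lists on each array, with the replicate number above each point and the 4 groups on the horizontal axis. G-Sham replicate 1 is the lowest of the 15 arrays for macrophages and lies within the range of the Surgery arrays in the other lists.

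Further named genes that fell belonged to none of the lists above. Msrb2, a mitochondrial methionine sulfoxide reductase gene, was at -0.47 to 2.21 (median 0.42) in Sham and -3.95 to 0.081 (median -2.09) in Surgery, a difference of -2.98 (standard error 0.58). Ncoa4, the cargo receptor for the autophagy of ferritin, which red cell precursors need for iron, fell by 2.64 (-2.45 on the ground and -2.86 in flight). Amhr2, the type II receptor gene of anti-Müllerian hormone, fell by 3.45 and Zbtb18, a transcriptional repressor gene, by 3.10, both with each arm's arrays widely spread. Mki67, the proliferation marker Ki-67, fell by 1.60 (standard error 0.32), at -2.92 to -1.71 (median -2.33) in Surgery and -1.77 to 0.096 (median -0.94) in Sham. It was the 1 called of 25 cell cycle genes, whose median difference was 0.12. Stab2, the hyaluronan-scavenging receptor gene of sinusoidal endothelium, was at least 4.11-fold lower and was called in 13 of 31 settings, whereas the median over 12 endothelial genes was 0.78 on the ground and -2.77 in flight.

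Bone-forming and cartilage genes did not move together. Alpl, the alkaline phosphatase needed for mineral, and Bglap2, an osteocalcin gene, fell by 2.44 and 2.31, the 2 called of 10 osteoblast and matrix genes. Alpl was -0.64 on the ground and -4.53 in flight, and Bglap2 was -1.40 and -3.38. Col1a1 and Col1a2, the chains of bone collagen, differed by 0.53 and 0.18, Sparc by 0.30 and Runx2, the master regulator of osteoblasts, by 0.39, none of them called. With slide as a block neither Alpl nor Bglap2 was called. The list's median was 0.24.

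No member of the chondrocyte list was called in limma, out of 6 tested of 16 listed, and 1 had an unadjusted p of at most 0.05. Col2a1, the main collagen of cartilage, was at -2.64 to 0.22 in G-Sham and at 1.98, 4.65, 8.06 and 5.21 in G-Surgery, a difference of 6.03 on the ground. In flight it was -1.24, with FLT-Sham at -3.19 to 2.66 and FLT-Surgery at 1.76, -2.14 and -2.46, and over both conditions it was 2.67 (standard error 1.37). Its interaction of surgery and gravity was -7.27, with an unadjusted p of 0.0034 and an adjusted p of 0.170 in limma. Acan, the cartilage proteoglycan, was 1.46 on the ground and -0.34 in flight. Col9a1, a minor cartilage collagen, had one sign in both, 2.24 and 1.46, without being called.

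Signalling lists held few calls. There were 0 called of 23 genes in the list of BMP and TGF-beta signalling, 0 of 24 for Wnt, 0 of 24 for angiogenic factors and hypoxia, 0 of 17 interleukins and receptors and 0 of 20 for apoptosis, with medians between -0.26 and 0.25. At an unadjusted p of 0.05 in limma with no fold cut-off, 4, 4, 3, 1 and 4 members passed in that order. Bmp2, a ligand that bone repair requires, was 1.67 on the ground and -2.50 in flight. Of 17 chemokines and receptors 2 were called, Ccl4 and Cxcl5, both higher, while Ccl2 differed by 0.47 and Ccl3 by 0.42. Of 22 complement and coagulation genes only Cfd was called. T and NK cell genes (0 called of 9 in limma, 2 at an unadjusted p of 0.05) had medians of 0.49 on the ground and 0.48 in flight, with Cd3e at 0.80 and Cd4 at -0.070. B cell genes (0 of 10, 1 at that p) had a median of -0.78 and nerve genes (0 of 11, 1 at that p) 0.14. Tendon genes (0 of 10, 0 at that p) had a median of -0.95, with opposite signs on the ground, 0.34, and in flight, -2.54. Housekeeping genes had 2 called of 12, Ywhaz higher and Sdha lower, around a median of -0.082.

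**Figure D5:**
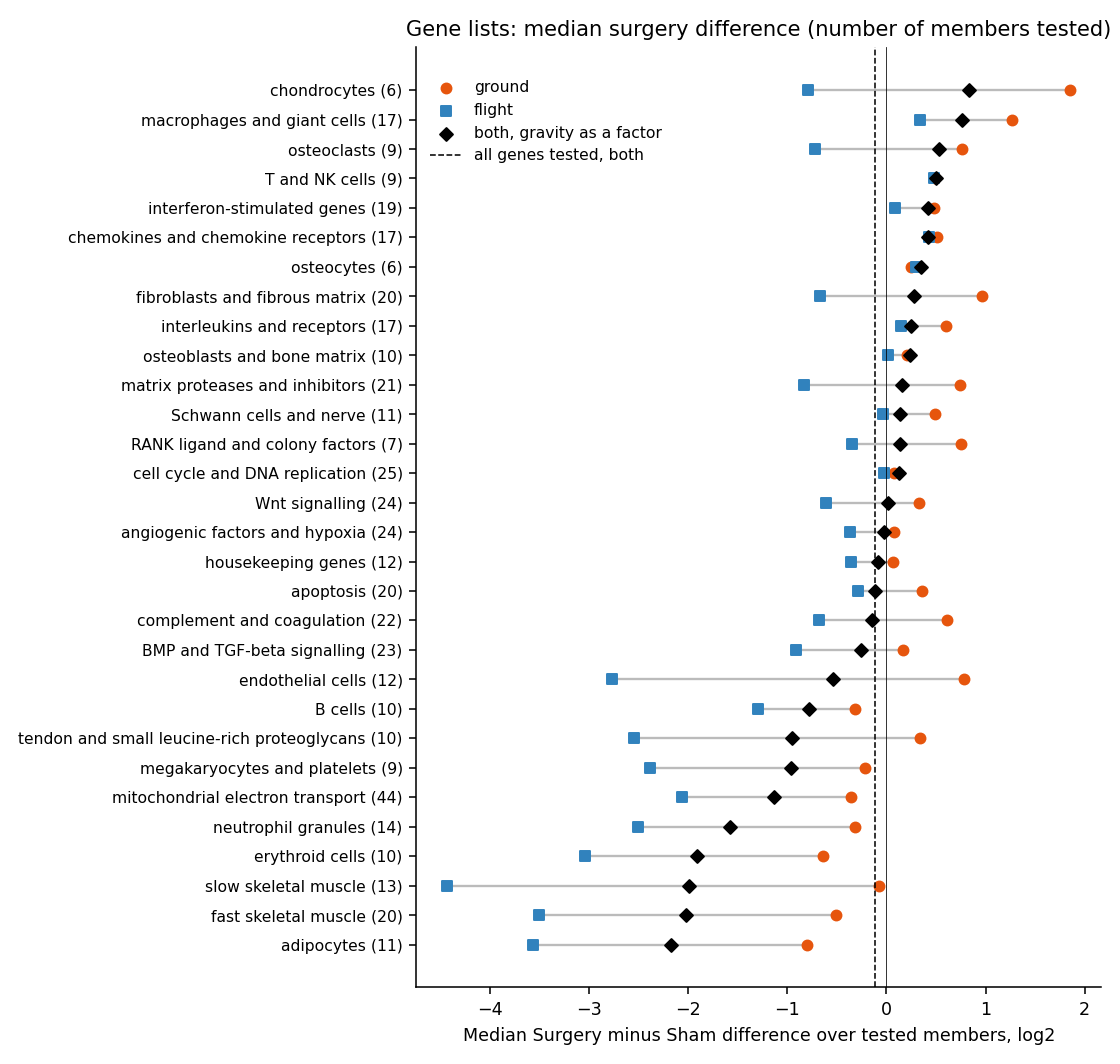
Median Surgery minus Sham difference (log2) over the tested members of 30 gene lists, on the ground (circles), in flight (squares) and over both with gravity as a factor (diamonds), with the number of members tested in brackets. The dashed line is the median of all genes, -0.11, and adipocyte, muscle, erythroid and neutrophil lists lie furthest below it, with flight below ground in each.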

How the data were processed

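Femoral RNA of 15 mice was measured on 2-colour Agilent arrays, 1 per mouse. The authors deposited the output of Agilent Feature Extraction 12.0 (per the labels) for each array, with the Cy5 and Cy3 intensity of each spot and their log10 ratio after linear and lowess dye normalization. The deposited series table holds the same log10 ratio to within 0.005. Log10 ratios were converted to log2, control spots were left out, outlier spots were set to missing and spots of one probe were averaged. Of 55681 probes, 28026 were matched to a symbol of RefSeq on GRCm38.p6 by accession, and the 21869 whose Cy5 signal exceeded background on 3 or more of the 15 arrays were tested.

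Surgery was fitted with gravity as an additive factor in limma 3.58.1 and R 4.3.3. A gene was taken at its brightest probe. Lower bounds of a fold are the lower of those from the Cy5 intensity after loess and quantile normalization between arrays and, added after seeing the data, from Cy5 minus its 75th percentile with gravity as a factor. They may carry dye bias, as there was no dye swap, and use the lowest signal well above background on each array as the floor. The study's methods name a lowess step within each array; it was run again as an alternative, because the deposited ratios already carry one.

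Named genes were, in each direction, the 10 with the largest value of the smaller of the ground and flight differences that were above background in each group, the 4 largest that were dim throughout one arm, the called members of 30 gene lists and the first 2 members of each list. The members, lists and rules were chosen with earlier results of these data known. The fit was tested on simulated data. Alternatives changed the normalization, the background correction, the filters, the slide, the replicate number, the array weights, the variance trend and the arrays used. Background correction by normexp used median spot signals, since the mean signals were not in the columns used here. Arrays of a group are separate mice by their labels, and their small number bounds the precision. The RNA was degraded in all groups according to the study. Metabolite and imaging data were not analysed here.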

Additional observations from a re-analysis of the deposited data

Results flagged for a closer look

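Of 195 combinations of a named gene and a group of 4 arrays, 9 held an array far from the other 3 by Dixon's criterion at the 95% level, and chance alone gives 9.75. FLT-Sham replicate 8 stood low for 5 of them. Its log2 ratio of Amhr2 was -2.02 where the other FLT-Sham arrays were at 3.17 to 3.94, and that of Srl was 0.73 against 6.17 to 7.24. Perm1 was listed at 0 against 7.06 to 7.52, Cox7a1 was at 3.25 against 6.29 to 6.77 and Adipoq at 1.63 against 4.48 to 5.02. G-Sham replicate 1 stood low for Cox7a1, at 1.90 against 4.86 to 5.31, and for Acta1, at 0.62 against 6.58 to 7.16. G-Surgery replicate 5 stood high for Mylpf, at -0.061 against -1.28 to -1.15, and G-Sham replicate 5 for Cidec, at 4.38 where the others were listed at 0. FLT-Surgery, with 3 arrays, was not examined in this way.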

How the results depend on the processing

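No named gene that was called changed direction under any setting run. Values follow as probes called (987 in the fit reported), probes at an adjusted p of 0.05 (2), genes moving the same way (502), surgery's share of the sum of squares (17.0%) and the percentage of ground-called probes with the same sign in flight (48.3%). Loess within each array gave 1083, 26, 607, 16.5% and 59.5%, and moved the median of all probes from -0.033 to 0.16. Setting each array's median to 0 gave 1174, 28, 627, 17.6% and 56.0%, normexp with loess 264, 15, 147, 21.4% and 61.8%, and the Cy5 channel alone 1177, 28, 578, 17.5% and 46.4%. No filter gave 1046, 2, 481, 13.03% and 50.4%, probes above background in Cy5 on all arrays 316, 38, 138, 18.8% and 49.6%, and in both channels 315, 42, 137, 19.2% and 48.1%. Slide as a block gave 392, 1, 233, 14.4% and 42.0%, slide 1 alone 967, 0, 570, 38.6% and 69.7%, with 7.45% of calls higher, and slide 2 alone 135, 0, 93, 14.5% and 64.5%, with 83.0% higher. Array weights gave 1832 probes called, 655 at the adjusted p, 1009 genes and 65.0%, and the share was not computed with weights. Leaving gravity out gave 1026, 3, 524, 16.3% and 48.3%, and leaving out FLT-Sham replicates 4 and 6, chosen after seeing the data, 468, 0, 228, 13.9% and 60.1%. The exact permutation p of the share was 0.0433, 0.0359, 0.0453, 0.0498, 0.0482, 0.0473 and 0.0407 with medians set to 0, normexp, Cy5 alone, no filter, both filters and gravity left out. It was 0.0506 with loess, 0.0833 and 0.583 on slides 1 and 2 alone, 0.174 with slide as a block, 0.188 with the replicate block (smallest possible 0.0833 on one slide and 0.0625 with the replicate block) and 0.104 without FLT-Sham replicates 4 and 6, and otherwise 0.0510 to 0.0527, leaving out one array aside. The series table, outlier spots kept, an intensity trend and zero ratios set to missing, the last chosen after seeing the data, gave 979 to 988 probes. The causes were not tested.

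Leaving out one array gave 564 to 1980 probes called, 0 to 552 at the adjusted p, 281 to 1098 genes, shares of 14.6% to 23.9% (exact permutation p = 0.0204 to 0.0952) and 31.8% to 76.0% of ground-called probes with the same sign. Calls rose to 1980 without G-Sham replicate 1 and to 1662 without FLT-Sham replicate 8. They fell to 619 without G-Sham replicate 5, to 644, 618 and 655 without FLT-Sham replicates 4, 6 and 9, and to 564 and 581 without FLT-Surgery replicates 3 and 5. Without G-Surgery replicate 1, 329 genes moved the same way.

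The replicate block, with the number in the sample title as a block, gave 299 probes, 0 at the adjusted p, 155 genes, 17.3% and 54.6%. Same-numbered ground arrays had correlations of their deviations of 0.28, -0.081, -0.053 and -0.14, so the numbers were not taken to pair the mice. Of 63 called genes named, 26 missed the cut-off with slide as a block, 36 with the replicate block and 38 with normexp. Probes near background and the 15 arrays limit the precision.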
